A study of Homo sapiens with 4 samples.

Results

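Wnt pathway and catenin genes were examined in the list of HuR-bound RNA regions from MDA-MB-231, a human triple-negative breast cancer cell line. Members were chosen by gene symbol alone: the Wnt ligands, Frizzled receptors, LRP5 and LRP6, Dishevelled proteins, APC, Axins, GSK3 kinases, casein kinase 1 family, tankyrases, TCF/LEF factors and catenins, with the gene of a peak taken from its annotated RefSeq transcript. They held 119 of the 14149 peaks, in 19 of the 3313 genes with a peak. RIP-seq was performed on lysates of these cells, with no treatment named in the labels, with a mouse antibody against HuR in 2 samples and with mouse IgG in 2 samples. All samples came from the same cell line, and only the antibody differed between the groups. The processed file used here is a single table of peaks without a column for any sample, so differences from IgG and the spread between replicates were not analysed here. Each peak carried a score, HOMER's own value, which is not an enrichment over IgG. A gene with no peak is called unlisted below, which does not mean that HuR did not bind its RNA.

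HuR is the product of ELAVL1 and is known for stabilising the mRNAs to which it binds. Its RNA recognition motifs favour runs of U, including those interrupted by A. In the canonical Wnt pathway, a Wnt ligand binds a Frizzled receptor together with LRP5 or LRP6. In the absence of ligand, a destruction complex of APC, Axin, GSK3 and casein kinase 1α phosphorylates β-catenin, the product of CTNNB1, which is then degraded. Once stabilised, β-catenin enters the nucleus and activates transcription with the TCF/LEF factors. Catenins also link cadherins to the cytoskeleton at cell junctions.

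The highest-scoring peaks lay in CSNK1A1, which encodes casein kinase 1α, and in CTNNB1 itself, followed by CSNK1G3, FZD6 and CSNK1E. The best peak of CSNK1A1 scored 953.2 and the single peak of CTNNB1 scored 834.0, against a median of 34.0 over all peaks. Of the 62 protein-coding genes that match the symbols, 18 were listed, or 29.0% (Wilson 95% interval 19.2 to 41.3%), beside 15.4% of all protein-coding genes. The remaining listed gene was the pseudogene CSNK1A1P1. A gene must be expressed in the cells to be listed, and expression was not measured here, so this share is a description.

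Stretches of 3′-UTR peaks with ATTTA or a run of T are shown first, since HuR is known for AU-rich and U-rich sequence. The stretches were picked for holding these letters. Some 3′-UTR peaks, such as the CSNK1A1 peak of 765.7 and the TNKS peak, are not shown. Each is 30 bases of the sense strand from hg38, inside the 3′-UTR of the canonical transcript and under the peak. The strand printed is that of the gene. The peaks shown for LRP6 and LEF1, and the CSNK1G3 peak of 209.2, were called on the opposite strand. Capitals mark the pentamer ATTTA or, where a peak had none, runs of at least 5 T.
CSNK1A1, chr5:149496121-149496150, − strand, peak score 953.2: atttgtcacagaaATTTAgttaacatctta
CTNNB1, chr3:41240201-41240230, + strand, peak score 834.0: caattagtttccTTTTTaatatgcttaaaa
CSNK1G3, chr5:123614566-123614595, + strand, peak score 209.2: ttttttttctctaATTTAacctttatggaa
CSNK1G3, chr5:123615769-123615798, + strand, peak score 193.3: tctcatattcatctttcATTTAtataattg
LRP6, chr12:12118647-12118676, − strand, peak score 81.0: aaatttggaaagATTTAttgagccttaggt
LEF1, chr4:108048490-108048519, − strand, peak score 62.6: agcataaaaaggTTTTTTaaaaggaaatgt
TCF7L2, chr10:113167076-113167105, + strand, peak score 38.4: aaattctcagtgaATTTAgctttctccctc
WNT5A, chr3:55469517-55469546, − strand, peak score 22.8: tttcaaaatgataATTTAcaatggaaggac
AXIN2, chr17:65529336-65529365, − strand, peak score 20.3: gtgcgttttgTTTTTTTTTTTcctatgctg
FZD1, chr7:91268385-91268414, + strand, peak score 10.3: gctcctcttttggATTTAcagaaatgtgtc

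Peaks of the whole list held these letters at similar rates. Of the 19 member peaks lying wholly in a canonical 3′-UTR, 11 held ATTTA on the sense strand, or 57.9% (36.3 to 76.9%), beside 54.0% of the 2052 such peaks of all genes. The longer TATTTAT was in 5.26% of these member peaks and in 8.24% of all. At least 5 T in a row, TTTTT, was in 78.9% and 78.7%. ATTTA lies within TATTTAT, so the first and second counts overlap. The CTNNB1 peak held ATTTA at 0 positions and TTTTT at 6, and 30.8% of its bases were G or C. Both 3′-UTR peaks of CSNK1E, at 61.7% and 52.4% G or C, held neither pentamer. A 3′-UTR peak of CSNK1G3, with a score of 209.2, held TTTTT at 12 positions, and each AXIN2 peak held it at 8. A match describes the letters under a peak and does not mark a binding site.

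**Figure D1:**
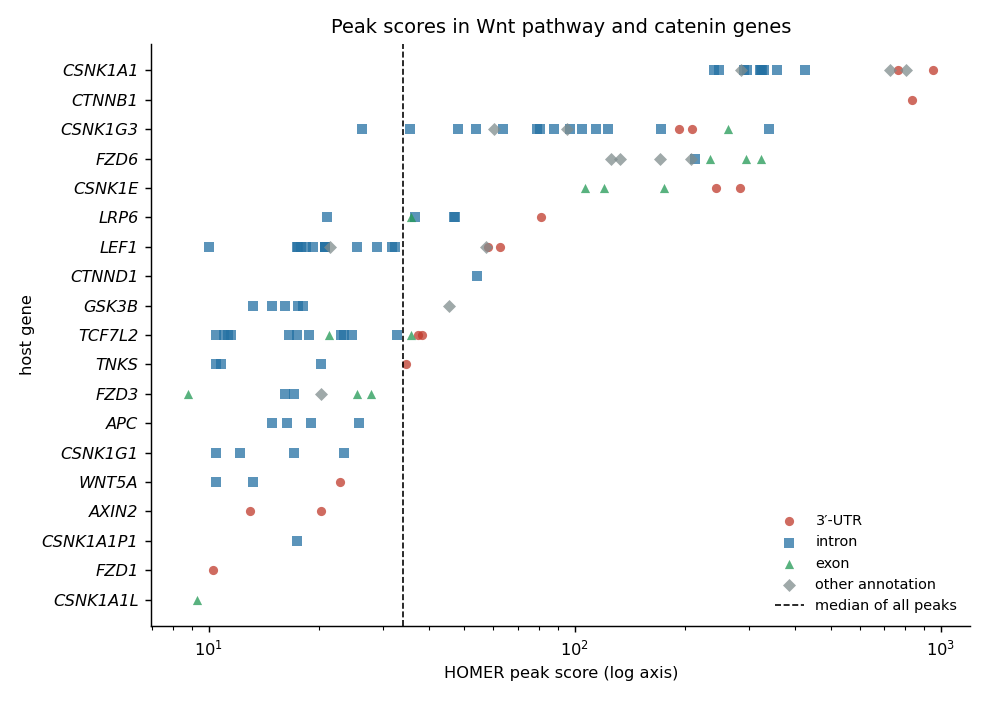
HOMER peak score (log axis) of each of the 119 peaks, by host gene, with the genes ordered by their best peak; symbols give the deposited annotation and the dashed line is the median of all 14149 peaks, 34.0. Peaks of CSNK1A1, CTNNB1, FZD6, CSNK1E and CTNND1 all lie to the right of this line, and peaks of 8 genes all lie to its left.

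The scores of these genes spanned the range from the lowest peaks of the list to its upper part, as the plot of peak scores by gene shows. Their median peak score was 35.5, with quartiles of 18.0 and 152, beside a median of 34.0 and quartiles of 17.6 and 83.4 over all peaks. Without CSNK1A1 the median of the members was 25.9, and with 1 peak per merged locus it was 27.7. The median of all peaks given here was not altered in these ways, so these values are not set against it. With each gene reduced to its best peak, the median was 38.4 for the members and 34.0 for all genes. A best score of 100 or more was reached by 5 of the 19 genes, or 26.3% (11.8 to 48.8%), and by 21.6% of all genes with a peak. These 5 genes, CSNK1A1, CTNNB1, CSNK1G3, FZD6 and CSNK1E, held 87.9% of the summed score of the members, and CSNK1A1 alone held 47.4%. At the lower end, 8 of the 19 genes had no peak that reached the median of all peaks. The median best score over all genes is also 34.0, so such genes are common in the whole list too. The members also had more peaks per gene, with a median of 4 beside 2 over all genes. Genes differ in length and in number of exons, which bears on this count and was not adjusted for.

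Among the 19 ligand genes, WNT5A was listed. For this and the other roles below, the share to set beside the counts is the 15.4% of all protein-coding genes. The groups are small, and no count by role was tested against that share. WNT5A, a ligand best known for signalling that does not pass through β-catenin, had 3 peaks with scores of 22.8, 13.2 and 10.5. The highest lay in its 3′-UTR at chr3:55469363-55469709, and the others lay in introns beside exon 3. All 3 scored below the median of all peaks.

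Of the 12 receptor genes, FZD6, LRP6, FZD3 and FZD1 were listed, and LRP5 and the remaining Frizzled genes were not. FZD6 had 8 peaks with scores from 125.5 to 322.0, so that even its lowest peak was above the upper quartile of the list. Its best peak lay in coding exon 6 of 7, and 3 of its peaks lay in the canonical 3′-UTR, with scores of 171.5, 133.1 and 125.5. These 3 were annotated to a non-coding transcript of the gene in the deposited list. FZD3 and FZD1, receptors of the same family, scored far lower: the 6 peaks of FZD3 scored between 8.81 and 27.7, and the only peak of FZD1, in its 3′-UTR, scored 10.3. Exact Poisson 95% intervals were set on the steps of the score, which stand for sequenced tags if 1 step is 1 tag. Here and below these intervals cover counting error only, not the spread between replicates, and no difference between genes was tested. Intervals of best peaks are set on the highest of a gene's peaks, and genes differ in their number of peaks. RNA abundance was not measured, so a higher score does not show more binding per RNA. For the best peaks, they ran from 305 to 340 for FZD6, from 22.8 to 33.2 for FZD3 and from 7.41 to 13.9 for FZD1, and did not overlap.

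LRP6, the co-receptor that is phosphorylated when Wnt binds, had 6 peaks. The highest, with a score of 81.0, was in its 3′-UTR at chr12:12118575-12118921. The other scores were 47.2, 46.7, 36.7, 35.7 and 21.0, in or beside exons 13, 14, 17 and 18 of 23. In the gene column of the deposited list, which gives the nearest start site, all 6 of these peaks carried the name of the microRNA gene MIR1244-4, so LRP6 appeared in the list only through the annotated transcript.

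Dishevelled proteins relay the signal from the receptors to the destruction complex, and 0 of the 3 DVL genes were listed. Of the scaffold and kinase genes of that complex, APC, AXIN2 and GSK3B were listed, and AXIN1 and GSK3A were not. Their best scores, 25.7, 20.3 and 45.5, compare with a median best score of 34.0 over all genes. GSK3B, a kinase that marks β-catenin for degradation, had its best peak, with a score of 45.5, in the 5′-UTR. Its other 5 peaks were in introns and scored 18.1, 17.6, 16.2, 14.9 and 13.2. APC, the tumour suppressor that scaffolds the complex, had 4 intronic peaks with scores of 25.7, 19.1, 16.4 and 14.9, and the peak of 16.4 lay outside its canonical transcript. AXIN2, a scaffold and a known transcriptional target of the pathway, had overlapping peaks of both strands in its 3′-UTR, with scores of 20.3 and 13.0. The best scores of APC and AXIN2 had overlapping Poisson intervals, 21.0 to 31.1 and 16.2 to 25.2, whereas the interval of GSK3B, 39.2 to 52.6, lay above both.

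CSNK1A1 stood apart from the rest of the destruction complex. Casein kinase 1α places the first phosphate on β-catenin. Its gene had 15 peaks on chromosome 5 with scores between 240.8 and 953.2 and a median of 325.0, and it ranked 50 of 3313 genes by its best peak. That peak, at chr5:149495987-149496333, and a second one, with a score of 765.7, lay in the 3′-UTR in exon 10 of 10. Peaks centred in exon 1 scored 803.6 and 726.6. The remaining 11 peaks lay in or beside 6 of the exons between, with scores from 240.8 to 424.6. A lncRNA gene on the same strand overlaps both 3′-UTR peaks in the annotation, so these tags could belong to either transcript.

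The casein kinase 1 family as a whole had 44 peaks in 5 of 7 protein-coding genes, and CSNK1D and CSNK1G2 were unlisted. CSNK1G3, which encodes the γ3 isoform, had 19 peaks, the most of any member, scoring from 26.2 to 339.2. CSNK1E, the ε isoform, had 5 peaks scoring 283.6, 242.8, 175.2, 120.6 and 106.9, of which the highest pair lay in the 3′-UTR. In the annotation, 4 of these peaks also overlap exons of TPTEP2-CSNK1E, a readthrough gene. CSNK1G1 reached 23.5 with its best of 4 peaks. The kinases thus covered a wide range, and the intervals of CSNK1G3 (322 to 358) and FZD6 (305 to 340) overlapped while that of CSNK1E (268 to 300) lay below both.

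Single peaks with scores of 9.3 and 17.4 were assigned to CSNK1A1L and CSNK1A1P1, which are a gene and a pseudogene copied from CSNK1A1 mRNA. The peak sequences were 93.7% and 93.1% identical to the CSNK1A1 mRNA over the 347 bp of the peak. Reads of CSNK1A1 may align at such copies, so the host of these 2 peaks is uncertain.

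Of the 3 genes with a tankyrase symbol, TNKS was listed, and TNKS2 and TNKS1BP1, which encodes a tankyrase-binding protein, were not. TNKS, a poly-ADP-ribosyltransferase that promotes degradation of Axin, had 4 peaks with scores of 34.7, 20.3, 10.8 and 10.5. The highest lay in the 3′-UTR. All 4 carried the name MIR597 in the gene column.

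LEF1 and TCF7L2, the DNA-binding partners of β-catenin, had many peaks with low scores, and TCF7 and TCF7L1 had none. LEF1 had 17 peaks with scores from 10.0 to 62.6 and a median of 20.8. TCF7L2 had 15 peaks with scores from 10.5 to 38.4 and a median of 21.3. In both genes the best peak was in the 3′-UTR, but its Poisson interval overlapped that of the best peak elsewhere. That interval was 50.2 to 65.1 at the LEF1 promoter and 30.2 to 42.0 in a coding exon of TCF7L2. LEF1 had peaks at 10 of its 12 exons and TCF7L2 at 8 of its 15, so in neither gene did the peaks keep to the 3′ end. The intervals of the best scores, 55.2 to 70.8 and 32.6 to 44.9, did not overlap.

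CTNNB1 and CTNND1 were the listed catenins among 9 genes, with 1 peak each. CTNND1 encodes p120-catenin, which binds cadherins at the membrane, and its peak scored 54.1 in an intron beside exon 15 of 21. A further peak, with a score of 95.7, lay in the canonical 3′-UTR of CTNND1 but was annotated to the readthrough gene TMX2-CTNND1 and was not counted. The α-catenin genes CTNNA1, CTNNA2 and CTNNA3 and the δ-catenin gene CTNND2 were unlisted, as were CTNNAL1, CTNNBIP1 and CTNNBL1. CTNNA1 was thus without a peak, although its product joins β-catenin to actin.

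The CTNNB1 peak lay at chr3:41240122-41240468 on the + strand, over the last exon and the end of the 3′-UTR. The peak ran 25 bp past the end of the canonical transcript at 41240443, and 322 of its 347 bp were in the 3′-UTR. Its score of 834.0 (Poisson interval 806 to 862) ranked CTNNB1 61 of 3313 genes, between SAR1A at 842.6 and PCBP1 at 829.3, neighbours that lie within this interval. Its focus ratio, which describes how the reads of a peak gather at its centre, was reached by 10.5% of all peaks.

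A single peak was unusual at such a score. Of the 127 genes whose best peak scored 500 or more, 11 had only 1 peak, or 8.66%, and their median was 6 peaks. Over all genes 32.1% had 1 peak. CTNNB1 has 15 exons, and none of its coding exons had a listed peak, whereas CSNK1A1 at a similar best score had peaks at 8 of 10 exons. The list is a selection, since peak names on chromosome 3 were numbered up to 9674 and 1131 peaks were listed there. Whether other peaks of CTNNB1 were called and not selected is unknown, so the single listed peak does not place all signal at the 3′ end. By the summed score of all peaks of a gene, CTNNB1 ranked 354. With 3′-UTR peaks only, it ranked 37 of 1222 genes. The plot of peak number against best score shows its position.

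**Figure D2:**
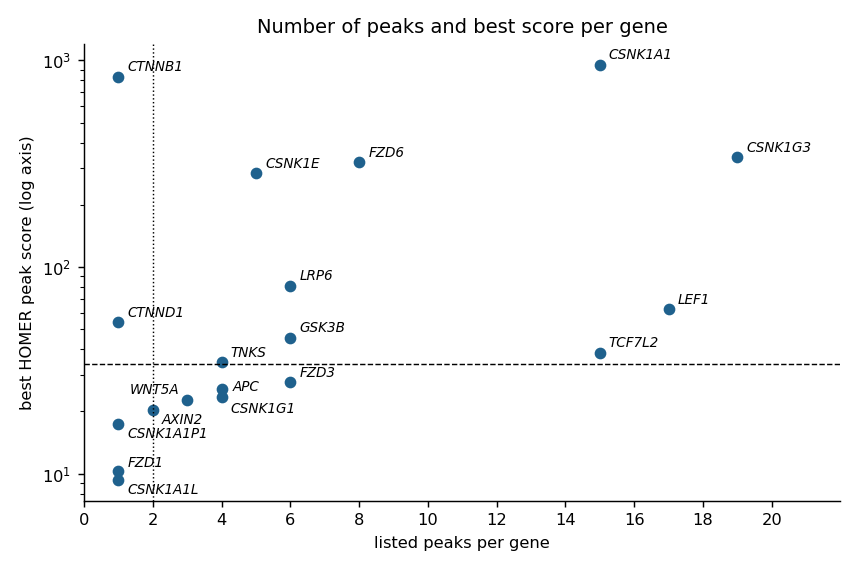
Best HOMER peak score (log axis) against the number of listed peaks for the 19 genes; the dashed line is the median best score over all 3313 genes, 34.0, and the dotted line their median of 2 peaks. CTNNB1 combines a score of 834.0 with 1 peak, while LEF1 and TCF7L2 combine 17 and 15 peaks with best scores of 62.6 and 38.4.

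The member peaks fell in introns, 3′-UTRs and exons at shares near those of the whole list. In 5′-UTRs the share was higher at the peak centre, but near that of the list at the 5′ edge of the peak. The deposited annotation placed 75 of the 119 peaks in introns, or 63.0% (54.1 to 71.2%), beside 61.9% of all peaks. It placed 17 in 3′-UTRs, or 14.3% (9.11 to 21.7%), beside 14.6%, and 14 in exons, or 11.8% (7.14 to 18.8%), beside 12.6%. In 5′-UTRs were 5 peaks, or 4.20% (1.81 to 9.46%), beside 1.22%. At the 5′ edge of the peak, taken along its own strand, the canonical 5′-UTR share was 5.04% (2.33 to 10.6%) beside 4.11%. The median score was 62.6 for member peaks in 3′-UTRs and 23.5 for those in introns, and the same medians over all peaks were 65.4 and 28.6. In exons it was 71.3 for the members and 44 for all peaks, and in 5′-UTRs 45.5 and 34.3. The 4 member peaks at promoters, 3 of them in CSNK1A1, had a median of 506 beside 32.8, and the 4 annotated as non-coding, all in FZD6, had 152 beside 50.7. By the deposited annotation, in 7 of the 8 genes with peaks both in the 3′-UTR and elsewhere, the best peak was in the 3′-UTR, which is 87.5% (52.9 to 97.8%) beside 63.8% of 968 genes. CSNK1G3 was the exception. In LEF1 and TCF7L2 the Poisson intervals of the best peaks inside and outside the 3′-UTR overlapped, so which was higher is not settled there. By the canonical transcripts FZD6 was a further exception, which made 7 of 9 genes, or 77.8% (45.3 to 93.7%), beside 65.8% of 1069 genes. The CSNK1G3 3′-UTR peaks scored 209.2 and 193.3, below 262.1 at an exon and 339.2 in an intron.

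The intronic peaks kept to the edges of exons. In the canonical transcripts, 75 peak centres were intronic, with a median of 106 bp to the nearest exon and none farther than 258 bp. Over all intronic peaks the median was 101 bp. The exon lay on the left of 38 of 39 + peaks and of 0 of 36 − peaks. The + peak on the other side, with a score of 80.3, was in CSNK1G3. The whole list had the same sides. Within a peak length of an exon, 99.5% of its + intronic peaks had the exon on the left. For its − intronic peaks this share was 0.356%. The side thus shows no trait particular to the members. At the 5′ edge of the peak, taken along its own strand, 55.5% (46.5 to 64.1%) of the member peaks were in a coding exon and 19.3% in an intron, beside 53.2% and 20.2% of all peaks. The intronic label of a peak thus depended on the point that was annotated.

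**Figure D3:**
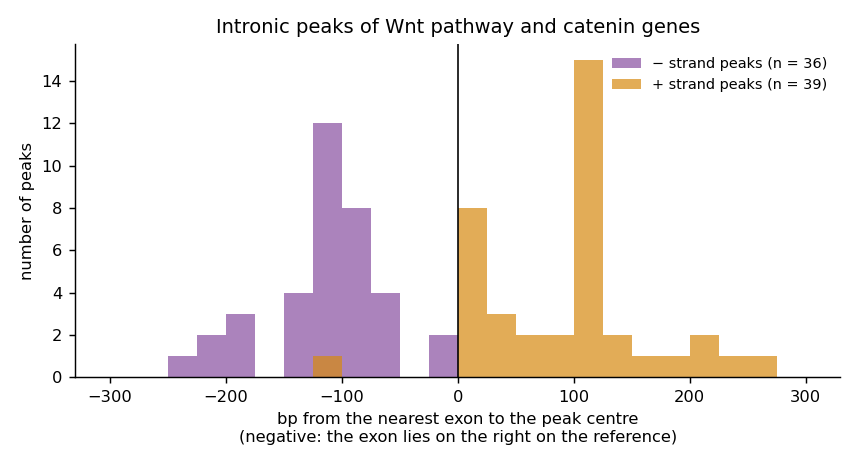
Number of intronic member peaks by distance in bp from the nearest exon of the canonical transcript to the peak centre, for 36 − strand and 39 + strand peaks; negative values mean that the exon lies on the right on the reference. The − peaks all lie on the negative side and all + peaks but 1 on the positive side, with none beyond 258 bp. Over all genes, 99.5% of + and 0.356% of − intronic peaks within a peak length of an exon had it on the left.

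Peaks were often found as pairs at one exon. The member peaks merged into 93 loci where they overlapped, and 28.0% of the loci (19.9 to 37.8%) held both strands, beside 19.8% of all loci. When each peak was given to its nearest exon, 35 of the 79 exons with a peak held a − peak and a + peak. The scores of such a pair differed by a median of 1.29 times and by at most 2.67 times, with the + peak higher in 16 and the − peak higher in 18. Pairs at an exon were not counted over all genes, so these values describe the members and show no trait particular to them. Peaks on the strand of the gene made up 51.3% of the member peaks (42.4 to 60.1%) and 53.2% of all.

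Exons flanked by peaks are shown for 3 genes with pairs and for GSK3B and CTNND1, whose peaks were on 1 side. Each sequence is from hg38 on the strand of the gene, with the exon in capitals and 20 bases of intron on either side in lower case. The exons shown for LEF1 and TCF7L2 encode part of the HMG box, the DNA-binding domain of these factors, and those of CSNK1G3 and GSK3B encode part of the kinase domain.
LEF1 exon 8, chr4:108078200-108078402, − strand, peaks 28.9 and 31.6: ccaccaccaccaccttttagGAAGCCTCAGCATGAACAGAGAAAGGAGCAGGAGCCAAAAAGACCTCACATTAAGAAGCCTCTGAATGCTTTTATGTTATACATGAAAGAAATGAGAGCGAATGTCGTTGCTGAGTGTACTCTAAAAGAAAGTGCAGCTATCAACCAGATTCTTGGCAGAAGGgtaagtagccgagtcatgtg
TCF7L2 exon 10, chr10:113151705-113151904, + strand, peaks 32.8 and 16.6: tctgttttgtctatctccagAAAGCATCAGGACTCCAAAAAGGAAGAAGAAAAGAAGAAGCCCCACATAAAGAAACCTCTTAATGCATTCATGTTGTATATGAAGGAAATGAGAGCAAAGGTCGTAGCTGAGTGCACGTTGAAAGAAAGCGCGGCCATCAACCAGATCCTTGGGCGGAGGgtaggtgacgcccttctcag
CSNK1G3 exon 6, chr5:123575709-123575983, + strand, peaks 172.0 and 339.2: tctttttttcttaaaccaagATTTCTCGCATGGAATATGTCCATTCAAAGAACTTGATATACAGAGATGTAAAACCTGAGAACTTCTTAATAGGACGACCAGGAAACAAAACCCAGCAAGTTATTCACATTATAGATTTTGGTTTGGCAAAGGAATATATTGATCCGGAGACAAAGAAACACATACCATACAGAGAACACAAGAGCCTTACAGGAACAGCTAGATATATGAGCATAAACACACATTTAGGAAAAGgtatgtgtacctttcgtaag
GSK3B exon 5, chr3:119916024-119916194, − strand, peak 16.2: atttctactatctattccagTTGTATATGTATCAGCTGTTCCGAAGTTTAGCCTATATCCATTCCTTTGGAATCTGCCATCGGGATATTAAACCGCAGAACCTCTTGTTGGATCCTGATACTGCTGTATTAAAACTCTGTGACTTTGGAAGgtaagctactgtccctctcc
CTNND1 exon 15, chr11:57809254-57809486, + strand, peak 54.1: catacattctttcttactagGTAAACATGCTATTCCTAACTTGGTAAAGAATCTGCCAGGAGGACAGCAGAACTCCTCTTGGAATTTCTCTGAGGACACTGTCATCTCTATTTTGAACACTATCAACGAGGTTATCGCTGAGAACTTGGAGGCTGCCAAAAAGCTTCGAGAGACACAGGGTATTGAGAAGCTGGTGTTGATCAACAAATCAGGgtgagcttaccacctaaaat

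LEF1 exon 8 and TCF7L2 exon 10, which encode part of the HMG box, were 79.6% identical over 137 aligned bp. Both of these exons had peaks on either side, and the scores around LEF1 exon 8 were nearly equal. Around TCF7L2 exon 10 the − peak scored 32.8 and the + peak 16.6. Around CSNK1G3 exon 6 the order was the reverse, with 172.0 for the − peak and 339.2 for the + peak, which is the best peak of the gene. The plot of scores by nearest exon shows these pairs in 4 genes.

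**Figure D4:**
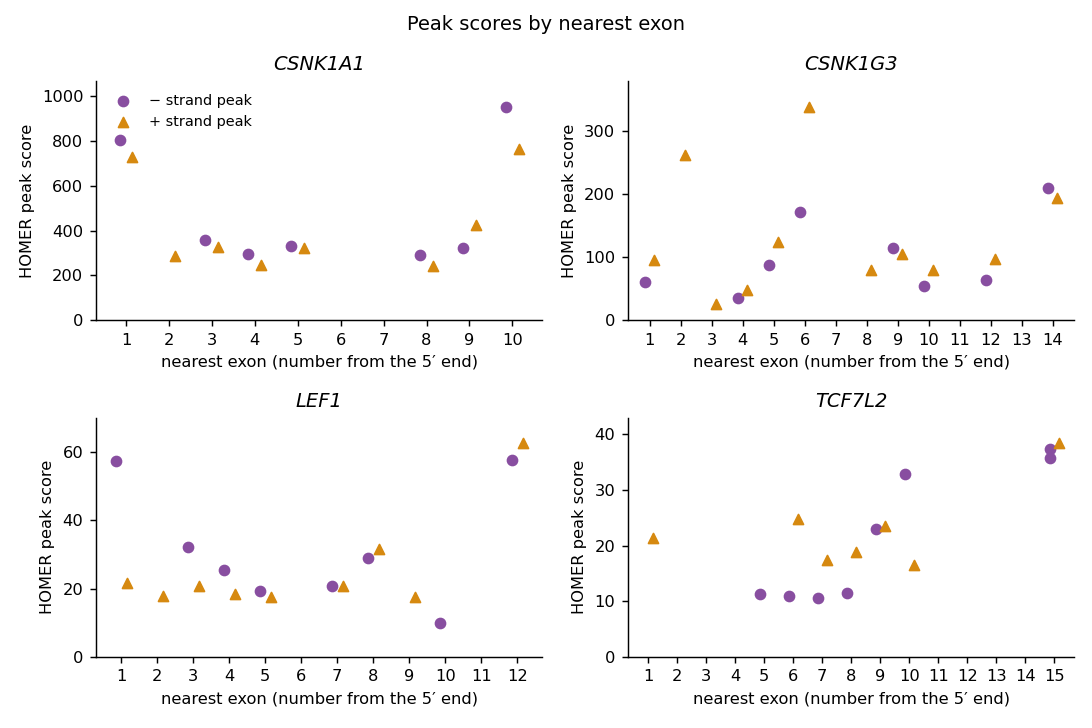
HOMER peak score against the number of the nearest exon of the canonical transcript, counted from the 5′ end, for − strand peaks (circles) and + strand peaks (triangles) of CSNK1A1, CSNK1G3, LEF1 and TCF7L2; each panel has its own score axis. In CSNK1A1 the peaks at exons 1 and 10 score between 726.6 and 953.2 and those between them 240.8 to 424.6, and in LEF1 the first and last exons hold the 3 highest peaks, 57.3 to 62.6.

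The gene column of the deposited list and the annotated transcript named different genes for 46.2% of the member peaks (37.5 to 55.2%) and for 43.3% of all peaks. Read through the gene column, CSNK1G1, FZD3, LRP6 and TNKS would be absent, and CSNK1G2, CTNNBIP1, FZD9, TCF7L1 and WNT16 would appear. Of the 17 LEF1 peaks, the column named LEF1 for 5, and of the 15 TCF7L2 peaks it named TCF7L2 for 1. All 15 CSNK1A1 peaks and the CTNNB1 peak carried the same name in both.

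Other genes of the pathway were taken from a list by function, which was written with earlier results of these data known. Of its 68 genes, 18 had a peak, or 26.5% (17.4 to 38.0%), beside 15.4% of all protein-coding genes. These 18 genes held 122 peaks. As with the members, expression was not measured, so the shares of this list are a description. Of the genes for secretion and ligand control, such as the DKK and SFRP inhibitors, 0 of 15 were listed, with an interval of 0 to 20.4% that holds the 15.4% of all protein-coding genes. In the membrane group, 1 of 10 was listed (1.79 to 40.4%), the Wnt receptor RYK with a best score of 132.1. In the cytoplasmic group 5 of 11 were listed (21.3 to 72.0%). FBXW11 and BTRC, which encode the β-TrCP proteins that recognise phosphorylated β-catenin, had best scores of 170.1 and 17.1. PPP2R5E, CUL1 and USP34 reached 36.5, 24.0 and 21.5.

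In the nuclear group 6 of 15 were listed (19.8 to 64.3%), again beside 15.4%. TBL1XR1 and CTBP1, which encode transcriptional coregulators, scored 314.2 and 205.6. CREBBP, TLE3, BCL9 and EP300, from the same group, scored 29.9, 22.8, 16.6 and 12.0. Of 7 genes known as targets of the pathway, CD44, CCND1 and MYC were listed (15.8 to 75%), with best scores of 769.6, 551.8 and 335.3. Of 10 junction partners, CDH11, PKP2 and AFDN were listed (10.8 to 60.3%), at 29.4, 28.9 and 11.5. All 3 listed target genes thus scored above every member but CSNK1A1, CTNNB1 and, for MYC, CSNK1G3.

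The labelled cell line was checked against marker genes as far as a peak list allows. Of the genes typical of this mesenchymal line, AXL had 21 peaks with a best score of 2768.7 and CD44 had 13, and VIM and EGFR had none. ESR1, PGR, ERBB2, EPCAM and CDH1, which are low or absent in this line, had none. A list of bound regions cannot show that a gene without a peak is not expressed.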

How the data were processed

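RIP-seq was performed with an antibody against HuR (2 samples) or mouse IgG (2 samples) in MDA-MB-231 cells. The authors aligned reads with STAR to hg38 and called peaks with HOMER, and deposited 1 list selected by a criterion of altered abundance. Versions, settings, the threshold and any pooling are not given in the sources used here. The methods name ANNOVAR, whereas the header holds a HOMER annotation. The deposited score is HOMER's own value on an unstated scale, the deposited focus ratio is a fraction, and the authors' distance in bp to the nearest start site is the other measurement. Library depth is unknown from the list.

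Peaks were assigned to genes through RefSeq transcripts (GRCh38.p14), matched for 13838 of 13929 peaks, and placed on GENCODE 44 canonical transcripts for 13714. Sequences were read from the hg38 genome of the same build, with 1-based coordinates. Of 11121 scores under 100, 99.8% lay on multiples of 0.245, against 41.7% by chance, which was read as 1 tag a step; the authors do not state this. The lowest score is then 34 tags and the median 139. Poisson and Wilson 95% intervals cover counting error only. How tags were shifted or extended before calling affects peak positions, so the 5′ edge of each 347 bp peak, on its own strand, was annotated beside its centre.

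Members and lists were chosen with earlier results of these data known. Every listed member is named, with a full account of the 10 highest-scoring genes and of the destruction complex and co-receptors. The planned HuR against IgG test was not run because the list holds no value per sample, and 0 columns of other samples were present. Alternatives were other gene assignments, score limits, merged loci, annotated points, motifs and ranking scores. Python 3.11.15, pandas 2.3.3, numpy 2.4.6, scipy 1.17.1, pysam 0.24.0, BLAST 2.17.0 and matplotlib 3.10.9 were used. Functions were tested on simulated data.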

Additional observations from a re-analysis of the deposited data

How the results depend on the processing

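No paired analysis was possible because the peak table has no column for any sample, and leaving out a replicate or testing HuR against IgG was not run for the same reason. Of 27 alternatives, 18 left a share or median within its 95% interval (order-statistic interval for medians), or a count within 1.5 times, and 9 did not. With only peaks at or above the median score, the 19 genes became 11, the 119 peaks became 61 and the intronic share moved from 63.0% to 45.9%. The intronic share was 19.3% at the 5′ edge of the peak. With the median peak in place of the best peak of each gene, the median over genes was 18.7 in place of 38.4. The share of 3′-UTR peaks with ATTTA, 57.9%, became 5.26% for TATTTAT and 78.9% for 5 T in a row, which are other motifs. The rank of CTNNB1 moved from 61 to 354 by summed score and to 37 by the best 3′-UTR peak. Counting ATTTA in the peaks annotated as 3′-UTR in the deposited list, an alternative chosen after seeing the data, gave 47.1%. Chosen likewise, the canonical transcripts gave 77.8% in place of 87.5% of genes with the best peak in the 3′-UTR. The unknown depth of the libraries, the unstated score scale and the lack of IgG values limit every comparison of scores.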

Other observations

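Some peaks over these genes carried another host or none in the deposited annotation. A pair annotated as intergenic lay in the canonical 3′-UTR of CSNK1A1, in exon 10, with scores of 909.8 and 776.7, both within the range of the 3′-UTR peaks counted for that gene. Another 9 peaks within CSNK1E, with scores from 28.6 to 203.8, were assigned to the readthrough gene TPTEP2-CSNK1E. The CTNND1 3′-UTR held 1 peak, with a score of 95.7, assigned to TMX2-CTNND1, and this score was higher than the 54.1 of the peak counted for CTNND1.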
